A study of Mus musculus with 22 samples.

Results

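The Hedgehog pathway was followed here through 9 genes of the 32285 in the count matrices: the ligands Shh and Ihh, the homeobox gene Noto, the receptor Ptch1, the membrane protein Smo, the transcription factors Gli1, Gli2 and Gli3, and the ligand-binding inhibitor Hhip. They were taken by symbol, and all 9 symbols were found. The cells came from gastruloids, aggregates of the mouse embryonic stem cell line E14Tg2A in which embryo-like cell types arise. Each began as 300 cells in a well, aggregated over 48 h, and received 3 µM CHIR99021, which activates Wnt signalling by inhibiting the kinase GSK3, so no group lacked that treatment. In the MULTI-seq experiments each gastruloid carried its own DNA barcode, which made the gastruloid the replicate. The day 3 set of MULTI-seq 3 had 24 gastruloids, and its sets of days 3.5, 4, 4.5 and 5 had 16 apiece. MULTI-seq 2 contributed 11 from day 4 and 12 from day 4.5, whereas MULTI-seq 1 contributed 24, all from day 5. All came from the same cell line, so they do not sample genetic variation, and no group had an added or blocked Hedgehog ligand.

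Hedgehog ligands are secreted proteins that bind Ptch1. Without ligand, Ptch1 keeps Smo inactive; with ligand, Smo signals to the Gli zinc finger factors, of which Gli2 acts mainly as an activator, Gli3 is largely cut into a repressor when ligand is absent, and Gli1 is both an activator and a product of the pathway. Ptch1, Gli1 and Hhip are target genes, and the Ptch1 and Hhip proteins bind the ligand and limit its spread. In the embryo Shh is made by the notochord, which expresses Noto, and by gut endoderm, while neural tube and somites respond to it.

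Levels are given as CPM, the UMIs of a gene per 1000000 UMIs of the cells summed, with mean ± SD over gastruloids. Cell types are the names in the authors' table (PSM is presomitic mesoderm, NMPs are neuromesodermal progenitors, PGCs are primordial germ cells). The 18 lanes held 64703013 to 307883815 UMIs, with a median of 8287 to 38443 UMIs per cell, and no lane shared more than 15 barcode strings with another. Of 8 markers set down for Notochord, 6 were highest in the cells of that name among the 25 types (T, Foxa2, Chrd, Nog, Foxj1 and Sox9), while Krt8 and Krt18 were highest in Mature Endoderm. Of 9 markers of Mature Endoderm, 8 were highest in the cells of that name, and Foxa2 was highest in Notochord. Floor plate, another Shh-producing tissue that shares Foxa2 with the notochord, had 3 of 7 markers highest in Notochord cells (Foxa2, Slit2 and Sulf1), whereas Spon1 was at 2.41 CPM there.

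All 9 gene identifiers matched the GRCm38 (mm10) annotation. Shh lies at chr5:28456815-28467256 on the minus strand, Ihh at chr1:74945315-74951672 (minus), Noto at chr6:85423886-85428877 (plus), Ptch1 at chr13:63508328-63573598 (minus), Smo at chr6:29735503-29761365 (plus), Gli1 at chr10:127329882-127341974 (minus), Gli2 at chr1:118834132-119053619 (minus), Gli3 at chr13:15463235-15730026 (plus) and Hhip at chr8:79965851-80058006 (minus). RefSeq windows from 250 bases before to 50 bases after RefSeq's gene start (GRCm38.p6) were matched for 7 of the 9 genes; Shh and Gli1 were the others. The Gli motif GACCACCCA, searched on both strands, was in 0 of the 7 windows and in 0.253% of 32851 windows of all genes. Its first 7 bases, GACCACC, chosen after the longer search found none, were in the window of Noto alone and in 2.80% of all windows; every window with the longer motif also counts here. The windows of Ptch1, the target gene most of the comparisons turn on, and of Noto, the only one with a match, are printed 5′ to 3′ on the gene's strand, with a match of the 7-base motif in capitals. The Ptch1 window is chr13:63565686-63565985 and holds 47 CpG dinucleotides at 76.3% G and C, and the Noto window is chr6:85423636-85423935 and holds 6 CpG dinucleotides at 54.0%; the medians over all windows were 7 and 52.7%. The Ptch1 window lies wholly inside the gene span given above, so it is at an internal start and not at the outermost one; the Gli3 window lies inside its gene span too.
Ptch1: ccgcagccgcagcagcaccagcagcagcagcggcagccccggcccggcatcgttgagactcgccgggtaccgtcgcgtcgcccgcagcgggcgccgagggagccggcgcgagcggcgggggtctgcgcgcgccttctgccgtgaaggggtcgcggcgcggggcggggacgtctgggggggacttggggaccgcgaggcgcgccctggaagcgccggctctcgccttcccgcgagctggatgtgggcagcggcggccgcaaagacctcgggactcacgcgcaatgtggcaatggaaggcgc
Noto: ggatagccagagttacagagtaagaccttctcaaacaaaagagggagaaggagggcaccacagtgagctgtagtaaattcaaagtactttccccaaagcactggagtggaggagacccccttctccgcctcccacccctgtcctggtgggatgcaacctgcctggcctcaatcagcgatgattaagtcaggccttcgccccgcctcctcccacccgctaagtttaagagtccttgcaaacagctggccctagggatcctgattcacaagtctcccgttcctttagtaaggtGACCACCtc

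Shh came almost wholly from cells of 2 names. Of its 6138 UMIs in 77674 cells, 53.6% were in Mature Endoderm and 42.5% in Notochord, which made up 3.53% and 1.61% of the cells. Summed over all cells of a name, Shh was at 83.9 CPM in Notochord, 25.5 in Mature Endoderm, 2.58 in Anterior Primitive Streak, and from 0 to 0.919 in the other 22 types. A Shh UMI was found in 39.9% of 1247 Notochord cells (exact Clopper-Pearson 95% interval 37.2% to 42.7%) and in 33.9% of 2740 Mature Endoderm cells (32.1% to 35.7%). These intervals cover counting error only. In Mature Somites, which should lack Shh, 0.119% of cells had a UMI, and in Late Spinal Cord, which could hold floor plate cells, 0.136%. Over all 22 types other than Notochord, Mature Endoderm and Anterior Primitive Streak the share ran up to 1.43%, in PGCs (4 of 279 cells). Median depth was 21532 UMIs in Notochord cells and 35773 in Mature Endoderm cells, 24617 in Late Spinal Cord and 22316 in Mature Somites. Thinned to 5000 UMIs per cell, the shares were 22.6% in Notochord (7 shallower cells left out) and 10.5% in Mature Endoderm (4 left out). The order of both types differed between groups. At days 4.5 and 5 of MULTI-seq 3 Mature Endoderm had the higher share only before thinning. At day 5 of MULTI-seq 1 and day 4.5 of MULTI-seq 2 it had the higher share before and after thinning. In MULTI-seq 3 the share with a Shh UMI was 47.5% in Notochord and 22.9% in Mature Endoderm at day 4, but 49.3% and 60.1% at day 5 (33.3% and 18.7% after thinning). At day 5 of MULTI-seq 1 it was 25.7% and 48.5% (20.3% and 25.8% after thinning). At day 4.5 it was 50.6% and 54.1% in MULTI-seq 3 (34.2% and 20.3%), and 21.4% and 43.1% in MULTI-seq 2 (3.57% and 18.1%, with 28 Notochord cells). The plot of levels by cell type shows both sources at its left edge.

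**Figure D1:**
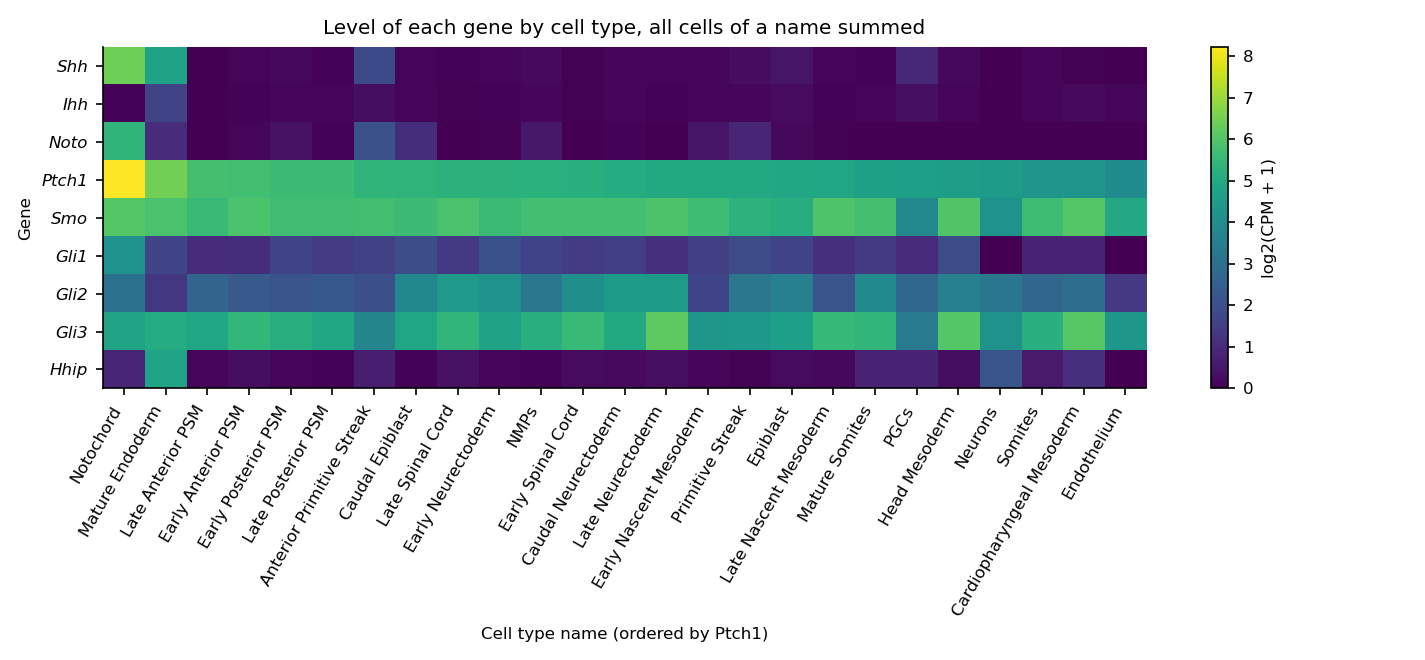
Level of the 9 genes (vertical axis) in the 25 cell type names (horizontal axis, ordered by Ptch1), as log2(CPM + 1) of all cells of a name summed. Shh and Noto are bright in Notochord (83.9 and 40.4 CPM), Hhip in Mature Endoderm (27.0 CPM) and Ptch1 in both (299 and 87.5 CPM).

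Shh in Mature Endoderm was higher at the later days. Gastruloids with at least 10 cells of the type entered each value. In MULTI-seq 3 it was 9.64 ± 7.86 CPM at day 4 (SD, n = 14, lowest 1.66, median 6.02, highest 24.5), 36.0 ± 20.5 at day 4.5 (n = 7; 14.0, 32.7 and 73.3) and 53.6 ± 29.4 at day 5 (n = 9; 27.1, 43.2 and 116). With at least 20 cells of the type, 2 gastruloids of day 4.5 were left, with a mean of 63.2 CPM, so the place of day 4.5 between the others rests on gastruloids with few such cells. All 9 gastruloids of day 5 were above the highest of day 4, but those days were in different pools and were not tested against each other. Between days 4.5 and 5, which shared a pool, the log2 difference in Shh within Mature Endoderm was 0.47 (SE 0.32, adjusted p = 0.582), and the days overlapped. In MULTI-seq 2 Shh in Mature Endoderm was 4.70 to 15.0 CPM in 4 gastruloids of day 4 and 14.2, 38.7 and 39.9 in the 3 of day 4.5. In MULTI-seq 1 it was 76.8 ± 40.7 at day 5 (n = 6; 28.2, 74.9 and 140).

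Shh in Notochord cells showed no such order by day. In MULTI-seq 3 the 3 gastruloids of day 3.5 with at least 10 Notochord cells had 34.1, 63.8 and 98.0 CPM. At day 4 Shh in Notochord was 82.2 ± 53.4 CPM (n = 7; 17.0, 59.7 and 170), and at day 5 the 3 gastruloids had 72.4, 176 and 210. The ranges of days 3.5, 4 and 5 overlapped. At day 3 a gastruloid with 10 Notochord cells had 216 CPM, and at day 4.5 one with 53 such cells had 126. At day 4 Shh was higher in Notochord than in Mature Endoderm by more than the sum of both SDs, and at day 5 (153 ± 71.6 against 53.6 ± 29.4) it was not. The plot of source levels shows each gastruloid.

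**Figure D2:**
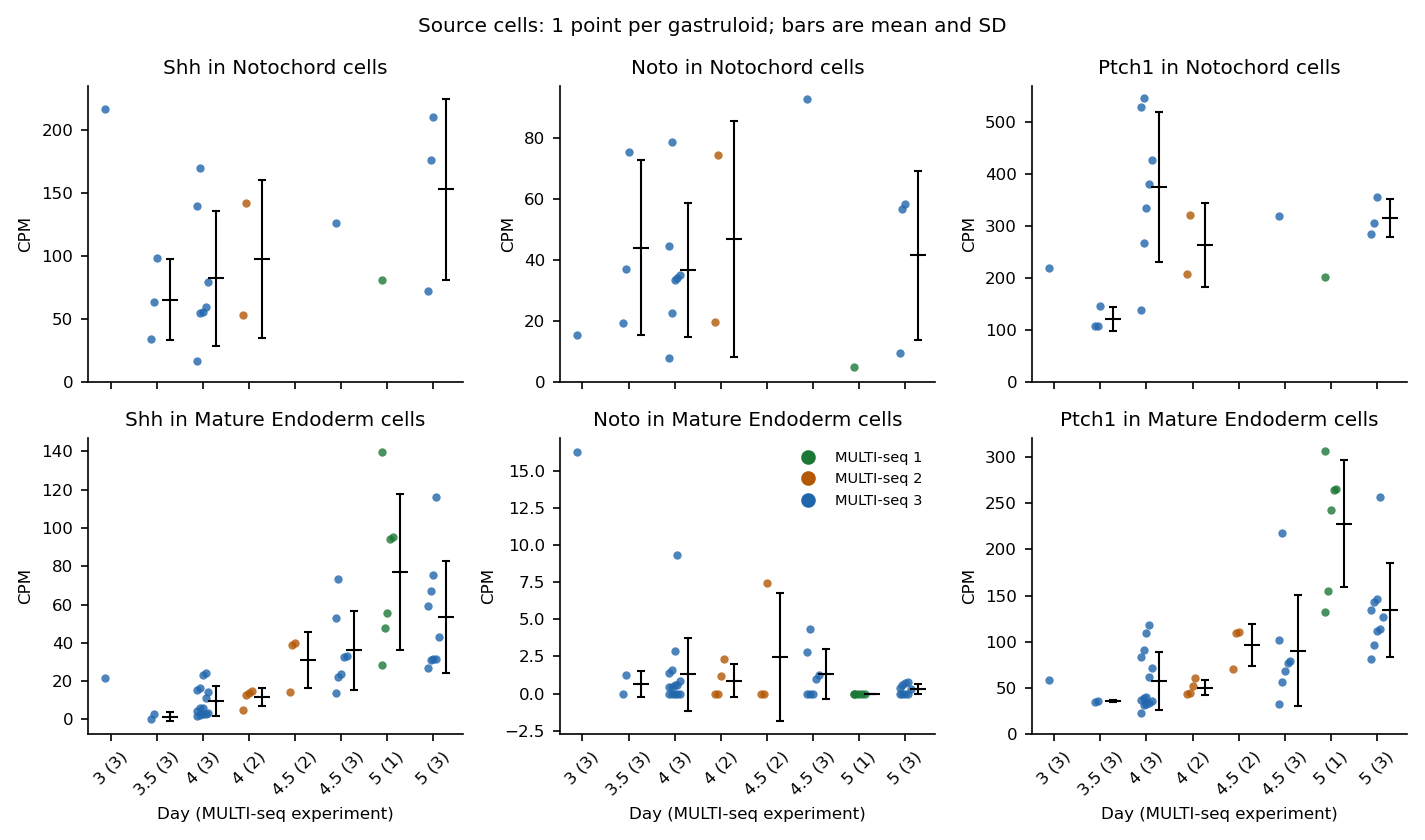
Shh, Noto and Ptch1 (vertical axes, CPM) in Notochord cells (top) and Mature Endoderm cells (bottom) by day, with the MULTI-seq experiment in brackets; a point is a gastruloid with at least 10 cells of the type, and bars are mean and SD where there are 2 or more. In MULTI-seq 3, Shh in Mature Endoderm lies between 1.66 and 24.5 CPM at day 4 and between 27.1 and 116 at day 5.

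Ihh, the ligand best known from cartilage and gut, was rare, with 458 UMIs in all. It was highest in Mature Endoderm, at 2.25 CPM with a UMI in 7.92% of cells, and at most 0.276 CPM in any other type. In the 1247 Notochord cells it had 2 UMIs. Within Mature Endoderm an Ihh UMI was found in 7.10% of the cells with a Shh UMI and in 8.34% of those without, although the first were deeper (median 42740 against 32784 UMIs). The ligands thus shared a cell type without Ihh being more frequent in Shh-positive cells.

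Noto marked the other source. Of its 1956 UMIs, 64.2% were in Notochord, at 40.4 CPM, with a UMI in 35.6% of the cells (14.9% after thinning) against 2.70% in Mature Endoderm. Next came Anterior Primitive Streak with 3.13 CPM, Caudal Epiblast with 1.10 and Mature Endoderm with 1.07. Of the 1247 Notochord cells, 225 had UMIs of both Shh and Noto, 273 of Shh alone, 219 of Noto alone and 530 of neither. Noto was found in 45.2% of the Shh-positive and 29.2% of the Shh-negative Notochord cells, with median depths of 24566 and 20382 UMIs. Noto in Notochord of MULTI-seq 3 was 19.5, 37.0 and 75.4 CPM at day 3.5, 36.6 ± 21.9 at day 4 (n = 7; 7.79, 34.0 and 78.7) and 9.44, 56.7 and 58.2 at day 5. Those ranges overlapped as well. In Mature Endoderm, by contrast, Noto was listed at 0 in all 6 gastruloids of day 5 in MULTI-seq 1 and was at most 0.79 CPM in the 9 of day 5 in MULTI-seq 3.

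Ptch1, the receptor and target gene, was present in every type and, over all days together, was highest in the source cells. It was at 299 CPM in Notochord, where 87.3% of cells had a UMI, at 87.5 in Mature Endoderm, and from 15.0 (Endothelium) to 54.4 (Late Anterior PSM) in the other 22 types apart from Anterior Primitive Streak with 40.9. In MULTI-seq 3 Ptch1 in Notochord was 108, 108 and 147 CPM at day 3.5, 375 ± 144 at day 4 (n = 7; 139, 380 and 547) and 286, 306 and 356 at day 5. Only the lowest gastruloid of day 4 fell into the range of day 3.5; it had 10 Notochord cells. In Mature Endoderm Ptch1 was 57.7 ± 31.6 CPM at day 4 (n = 14; 23.1, 39.6 and 118), 90.5 ± 59.9 at day 4.5 (n = 7; 32.7, 77.4 and 218) and 135 ± 50.5 at day 5 (n = 9; 81.4, 127 and 257). At day 4 of MULTI-seq 3, the group with most Mature Endoderm cells (1188), that type stood ninth of 16 in mean Ptch1, below Primitive Streak, Caudal Epiblast and Early Posterior PSM among others, while Notochord stood first. With at least 20 cells the mean of day 4.5 was 160 over 2 gastruloids, above that of day 5. At day 5 of MULTI-seq 1 it was 228 ± 68.9 (n = 6; 132, 254 and 307), in a separate experiment that was not tested against MULTI-seq 3.

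Within Mature Endoderm the cells with a Shh UMI had more Ptch1 than those without. Over 35 gastruloids with at least 5 cells on each side, Ptch1 was 137 ± 86.2 CPM in the first and 92.0 ± 60.4 in the second, and higher in the Shh-positive cells in 33 of 35. In Notochord it was 342 ± 136 against 304 ± 123 over 14 gastruloids, and higher in 10 of 14. Gli1 in Notochord was 20.8 ± 12.2 against 15.5 ± 9.49, also higher in 10 of 14. Smo, which is not a general target, was also higher in the Shh-positive Mature Endoderm cells in 27 of 35, at 66.3 ± 13.4 against 61.4 ± 26.7, and in Notochord in 2 of 14. Noto, highest in Notochord, was higher in the Shh-positive Mature Endoderm cells too, at 3.39 ± 8.32 against 0.524 ± 1.46 (higher in 17 of 35 and lower in 3); its part in the gap of Ptch1 was not tested. Hhip showed no such lean in Mature Endoderm, at 25.8 ± 17.4 against 28.4 ± 21.0 and higher in 14 of 35. Shh-positive cells were deeper in both types; the part of depth was not tested.

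Smo, the signal transducer held in check by Ptch1, had the narrowest range of the 9 genes between types relative to its level, from 13.7 CPM in PGCs to 65.9 in Notochord. Hhip was nearly confined to Mature Endoderm, with 86.3% of its 4032 UMIs there at 27.0 CPM. Neurons, a type of 70 cells, followed with 3.37 CPM, and Notochord had 0.836. In MULTI-seq 3 Hhip in Mature Endoderm was 18.6 ± 14.7 CPM at day 4 (n = 14; 3.05, 16.4 and 54.2), 19.1 ± 10.9 at day 4.5 (n = 7; 6.92, 15.9 and 34.8) and 36.0 ± 14.3 at day 5 (n = 9; 12.1, 40.7 and 57.3), with overlapping ranges. Summed over all days, Ptch1 was thus highest in the 2 source types, while Hhip was high in Mature Endoderm alone. For Ptch1 in Mature Endoderm this did not hold at day 4 of MULTI-seq 3.

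The 3 Gli factors had separate patterns. Gli1 was at 17.6 CPM in Notochord and at 3.18 in Early Neurectoderm, the next type. It had 0 UMIs in Endothelium and Neurons, which held 303 and 70 cells. Gli2 was highest in neural types (21.4 CPM in Late Neurectoderm, 21.3 in Caudal Neurectoderm and 20.5 in Late Spinal Cord) and lowest in Mature Endoderm with 1.51. Gli3 was highest in Late Neurectoderm (72.4 CPM), Cardiopharyngeal Mesoderm (66.4) and Head Mesoderm (65.9) and lowest in PGCs (9.65). Ordering the types by mean within each day and experiment gave 711 pairs of neighbouring types over the 9 genes, and in 28 the means lay further apart than the sum of both SDs. For Gli3 there was no such pair, and for Shh the 7 were where the level dropped from a source type to the next one. Correlating log2(CPM + 1) over the 25 types, the gene most like Shh was Upk3a (Pearson's r = 0.99) and the gene most like Noto was Lmx1a (0.91). After them came 9030622O22Rik and Rassf10 for Shh, and Gm14851 and Foxj1 for Noto. The 3 most like Ihh were CAAA01077340.1 (0.98), Gm5771 and Cpn1, and those most like Hhip were Fhl2 (0.93), Myl6b and CAAA01077340.1. For Ptch1 they were Stbd1 (0.82), Lmx1a and Shh (0.80), and for Gli1 Avpr1b (0.81), Igbp1 and Ptch1 (0.80). For Smo they were Tead2 (0.93), Cux1 and Six5, for Gli2 Zfp932 (0.84), BC005624 and Ift27, and for Gli3 Bmpr1a (0.92), Elp2 and Kbtbd4. The types share lanes and depth, and a gene high in 1 or 2 types can give such an r.

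From day 3.5 to day 4 the ligand and 2 target genes of the pathway rose in whole gastruloids. Those days shared a pool and its lanes in MULTI-seq 3, with 16 gastruloids each. Of the 7 members that passed the filter on low counts (Ihh and Hhip did not), 5 were higher and 1 lower at day 4. Over all 13262 genes tested, 31.1% were higher, 29.2% lower and 60.4% called in either direction at an adjusted p under 0.05, so that calls were the rule at this step. A whole-gastruloid sum moves with the share of a cell type as well as with the RNA per cell, and the 2 cannot be told apart in it. Shh was 0.489 ± 0.712 CPM at day 3.5 (lowest 0, median 0.160, highest 2.16) and 3.60 ± 4.86 at day 4 (0.185, 1.03 and 17.6). Every gastruloid of day 4 was above the median of day 3.5, but the ranges overlapped (log2 difference 2.59, SE 0.66, adjusted p = 0.00124). With any 1 of the 4 lanes left out Shh no longer passed the filter on low counts, so this call has no such check. Over the same days the share of Notochord cells went from a median of 0.698% (0% to 3.54%) to 1.21% (0.143% to 9.58%), and of Mature Endoderm from 0.199% (0% to 3.77%) to 7.91% (0% to 20.3%).

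Ptch1 went from 30.6 ± 6.65 CPM (19.9, 29.6 and 42.5) to 58.1 ± 34.0 (22.6, 37.2 and 113), a log2 difference of 0.89 (SE 0.22, adjusted p = 0.000825). The day 4 gastruloids reached far above day 3.5 at the top but overlapped it at the bottom. Gli1 rose from 1.37 ± 0.607 to 2.68 ± 1.89 CPM (log2 0.89, SE 0.30, adjusted p = 0.0111), with 9 of 16 gastruloids above the day 3.5 median and 7 below it. Smo rose by 0.19 and Gli3 by 0.32 on the log2 scale. Gli2 fell by 1.06 (SE 0.29, adjusted p = 0.00244), from 15.2 ± 7.32 to 7.44 ± 6.21 CPM, and was below the day 3.5 median in 14 of 16 gastruloids. Noto, at 1.08 ± 0.660 and 1.28 ± 1.85 CPM, did not pass the test (log2 0.33, SE 0.61, adjusted p = 0.661).

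Ptch1 also rose within cell types, where a change in the share of types cannot enter in the same way. Of 15 tests of members in the 4 types with enough gastruloids, 5 were called, all higher, against 18.5% of all gene-by-type tests called and 9.5% called higher. In Caudal Epiblast, the posterior cells of the axis, Ptch1 was 24.3 ± 6.94 CPM at day 3.5 (n = 15; 9.74, 23.8 and 36.6) and 81.9 ± 66.8 at day 4 (n = 15; 17.5, 64.5 and 239). It was above the day 3.5 median in 14 of 15 gastruloids (log2 1.62, SE 0.26, adjusted p = 1.43e-05). In Early Posterior PSM it was 32.5 ± 5.94 (n = 13; 23.8, 30.2 and 44.1) and 74.6 ± 31.6 (n = 16; 42.3, 66.7 and 139), above the median in 16 of 16 with a small overlap (log2 1.00, SE 0.15, adjusted p = 2.27e-06). In Primitive Streak it was 34.9 ± 21.9 CPM at day 3.5 (n = 16; 15.0, 26.9 and 100) and 107, 120, 200, 284 and 288 at day 4, with no overlap (log2 2.73, SE 0.25, adjusted p = 5.32e-09). Those 5 gastruloids held 10 to 17 Primitive Streak cells each. Foxa2, a marker of both source types, rose in these cells too, from 18.2 ± 14.5 to 53.8 ± 29.4 CPM (log2 1.79, SE 0.33, adjusted p = 0.000473). Its part in the rise of Ptch1 was not tested.

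In Early Spinal Cord Ptch1 did not pass the test, at 29.8 ± 6.77 CPM (n = 10) and 40.8 ± 16.4 (n = 5; 26.2, 28.7, 33.1, 51.8 and 64.0; log2 0.18, SE 0.16, adjusted p = 0.667). Whether the rise of Ptch1 differed between types was not tested. The other calls were Smo in Caudal Epiblast (log2 0.23, SE 0.07, adjusted p = 0.0169) and in Early Posterior PSM (0.21, SE 0.04, adjusted p = 0.000115). Names of types were given from gene expression, so cells of one name at both days need not be at the same stage. The plot of Ptch1 within cell types shows the wide spread at day 4.

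**Figure D3:**
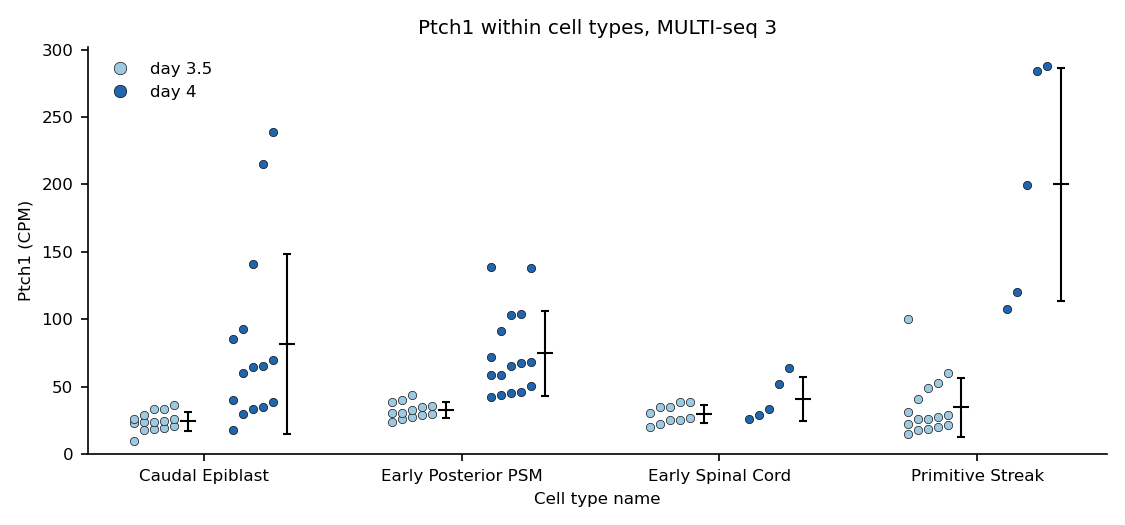
Ptch1 (vertical axis, CPM) in 4 cell types (horizontal axis) at day 3.5 (light) and day 4 (dark) of MULTI-seq 3; a point is a gastruloid with at least 10 cells of the type, and bars are mean and SD. In Primitive Streak all 5 points of day 4, from 107 to 288 CPM, lie above the highest of day 3.5, at 100.

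From day 4.5 to day 5, also in one pool of MULTI-seq 3 with 16 gastruloids each, none of the 7 members tested was called in whole gastruloids by edgeR, where 13.5% of 12298 genes were. At an unadjusted p under 0.05 there were 2, Gli3 (log2 -0.12, SE 0.05) and Hhip (1.27, SE 0.59), and DESeq2 called 0. Ptch1 was 35.7 ± 25.4 CPM at day 4.5 (21.3, 28.0 and 128) and 43.7 ± 27.0 at day 5 (22.7, 36.2 and 137). Shh was 3.39 ± 8.13 CPM (0, 0.905 and 33.1) and 5.06 ± 9.59 (0, 2.20 and 39.4), so at both days a gastruloid stood far above the median.

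Within types, 5 of 30 tests of members were called (7.55% of all gene-by-type tests were), 1 higher and 4 lower, against 3.6% and 3.95% of all tests. Ptch1 rose in Late Anterior PSM, the mesoderm next to form somites, from 32.9 ± 14.0 CPM (n = 9; 18.5, 29.8 and 62.8) to 58.0 ± 22.2 (n = 15; 37.7, 49.9 and 113). It was above the day 4.5 median in 15 of 15 (log2 0.89, SE 0.19, adjusted p = 0.00356). Gli3 fell in Mature Somites, from 45.1 ± 8.82 CPM (n = 13; 22.7, 44.5 and 59.2) to 34.7 ± 4.83 (n = 16; 23.0, 35.8 and 41.1; log2 -0.41, SE 0.08, adjusted p = 0.000215). All 16 gastruloids of day 5 were below the day 4.5 median.

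Gli3 fell in Somites too, from 32.7 ± 13.7 CPM (n = 10) to 21.6 ± 7.86 (n = 12; log2 -0.64, SE 0.19, adjusted p = 0.0490). Gli2 fell in Early Spinal Cord, from 16.4 ± 3.92 CPM (n = 15; 9.79, 16.4 and 22.1) to 14.1 ± 2.36 (n = 16; 9.96, 13.6 and 18.2; log2 -0.29, SE 0.09, adjusted p = 0.0328). In Late Spinal Cord it fell from 23.3 ± 2.73 (n = 7) to 18.7 ± 2.09 (n = 8; log2 -0.28, SE 0.09, adjusted p = 0.0486). Both Gli2 calls were lost in DESeq2, with adjusted p = 0.0541 and 0.0640. In Mature Endoderm 0 of 5 members were called by edgeR, and 1, Hhip, had an unadjusted p under 0.05 (log2 0.88, SE 0.28, adjusted p = 0.127); Ptch1 there had a log2 difference of 0.42 (SE 0.26, adjusted p = 0.527).

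In MULTI-seq 2, 11 gastruloids of day 4 were compared with 12 of day 4.5. None of the 4 members tested was called by edgeR (7.36% of 11064 genes were); 3 had an unadjusted p under 0.05, and DESeq2 called 0. Ptch1 was 45.2 ± 17.7 and 35.2 ± 11.2 CPM, Gli2 7.84 ± 5.21 and 12.2 ± 4.23, and Gli3 32.8 ± 6.09 and 41.5 ± 7.61. In Late Posterior PSM, the only type with enough gastruloids, 0 of 3 member tests were called and 0 had an unadjusted p under 0.05 (1.13% of all gene-by-type tests were called).

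Gastruloids of one day differed widely in their share of source cells, which allowed the target genes of other cells to be set against it. In MULTI-seq 3 the share of Notochord cells ran from 0% to 17.7% at day 4.5 (median 0.433%) and from 0% to 9.90% at day 5 (0.361%), and that of Mature Endoderm from 0% to 14.0% (1.41%) and from 0.290% to 14.3% (2.53%). Both shares moved together across gastruloids, with r from 0.18 to 0.80 depending on the group, so the sources cannot be fully separated. Log2(CPM + 1) of Ptch1, Gli1 and Hhip in Late Posterior PSM, Mature Somites, Early Spinal Cord and Late Spinal Cord was correlated with each source's share within a day and experiment, over at least 10 gastruloids with 20 or more cells of the type. Of 58 such relations 50 had a positive Pearson's r, and 19 were called at an adjusted permutation p under 0.05 (27 at an unadjusted p), all 19 positive: 10 of Ptch1, 8 of Gli1 and 1 of Hhip. Across these, the r of the target with depth ran from -0.34 to 0.55 apart from Hhip, at -0.63; its part was not tested. Over all genes measured in the same cells, 44.4% to 58.3% had a positive r, depending on the combination, and 0.0143% to 3.22% had an r as high as that of the called target. The called relations were picked for a high r, so small shares follow in part from that choice. Among relations not called the share reached 78.3%, for Ptch1 in Late Spinal Cord with Notochord in MULTI-seq 1. By Spearman's rho 8 were called, each of them also among the 19. Without the 2 gastruloids farthest from the median share, all 19 kept a positive r and 11 had a permutation p under 0.05. For Smo, Gli2 and Gli3, which are not known as general targets, 0 of 60 such relations were called and 6 had an unadjusted permutation p under 0.05; this set was chosen after the others were seen.

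In the somites Ptch1 followed the shares of both sources in MULTI-seq 3. At day 5 Ptch1 in Mature Somites of MULTI-seq 3 ran from 12.1 to 65.1 CPM (median 18.2) over 16 gastruloids. Its r with the Notochord share was 0.82 (adjusted permutation p = 0.00522) and Spearman's rho 0.74 (adjusted permutation p = 0.0177). Without the 2 farthest gastruloids r was 0.55 (permutation p = 0.0434). Among 15288 genes measured in the same cells, 4 had an r as high, with Ptch1 and Foxa2 among them, and the median r was 0.02. At day 4.5 the r of Ptch1 in Mature Somites was 0.94 over 10 gastruloids (adjusted permutation p = 0.0174), with rho 0.66 (adjusted permutation p = 0.119). Without the 2 farthest, which include the gastruloid with 17.7% Notochord, r was 0.49 (permutation p = 0.239). That gastruloid was not left out alone. With the share of Mature Endoderm, Ptch1 in Mature Somites had r = 0.67 at day 5 (adjusted permutation p = 0.0200; rho 0.52, adjusted permutation p = 0.118; 0.56 without the 2 farthest, permutation p = 0.0353). At day 4.5 that r was 0.85 (adjusted permutation p = 0.0174; rho 0.67, adjusted permutation p = 0.110; 0.67 without the 2 farthest, permutation p = 0.0633). Gli1 and Hhip in Mature Somites of day 5 were also called with Mature Endoderm (r = 0.71 and 0.63). Neither source gave a called relation in Mature Somites of MULTI-seq 1. With the Notochord share, which reached 3.16%, the r of Ptch1 was 0.28 over 22 gastruloids (adjusted permutation p = 0.305). With the Mature Endoderm share, which reached 7.69%, it was 0.42 over the same number. Gli1 was called with neither share there.

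In posterior mesoderm, here Late Posterior PSM, Ptch1 was called with the Notochord share at day 4 and with the Mature Endoderm share at day 5. At day 4 of MULTI-seq 3 Ptch1 in Late Posterior PSM ran from 37.7 to 116 CPM (median 44.4) over 13 gastruloids and had r = 0.81 with the Notochord share (adjusted permutation p = 0.0174; rho 0.84, adjusted permutation p = 0.00899). Only 8 of 14171 genes had an r as high. Without the 2 farthest gastruloids r was 0.50 (permutation p = 0.112), so this relation rests in part on them. With the share of Mature Endoderm r was 0.63 at day 4, which was not called. At day 5 Ptch1 in Late Posterior PSM followed the share of Mature Endoderm in both experiments. In MULTI-seq 3 r was 0.69 over 15 gastruloids (adjusted permutation p = 0.0174; rho 0.80, adjusted permutation p = 0.00899; 0.60 without the 2 farthest, permutation p = 0.0287). In MULTI-seq 1 r was 0.69 over 20 (adjusted permutation p = 0.0128; rho 0.66, adjusted permutation p = 0.0191; 0.53 without the 2 farthest, permutation p = 0.0260), and 12 of 11902 genes had an r as high. The Notochord share of MULTI-seq 1 gave r = -0.07 for the same cells (adjusted permutation p = 0.830). In MULTI-seq 3 at day 5 the Notochord share gave r = 0.57 (n = 15, adjusted permutation p = 0.0545; rho 0.68, adjusted permutation p = 0.0505; 0.64 without the 2 farthest, permutation p = 0.0174). The difference between the sources was not tested.

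**Figure D4:**
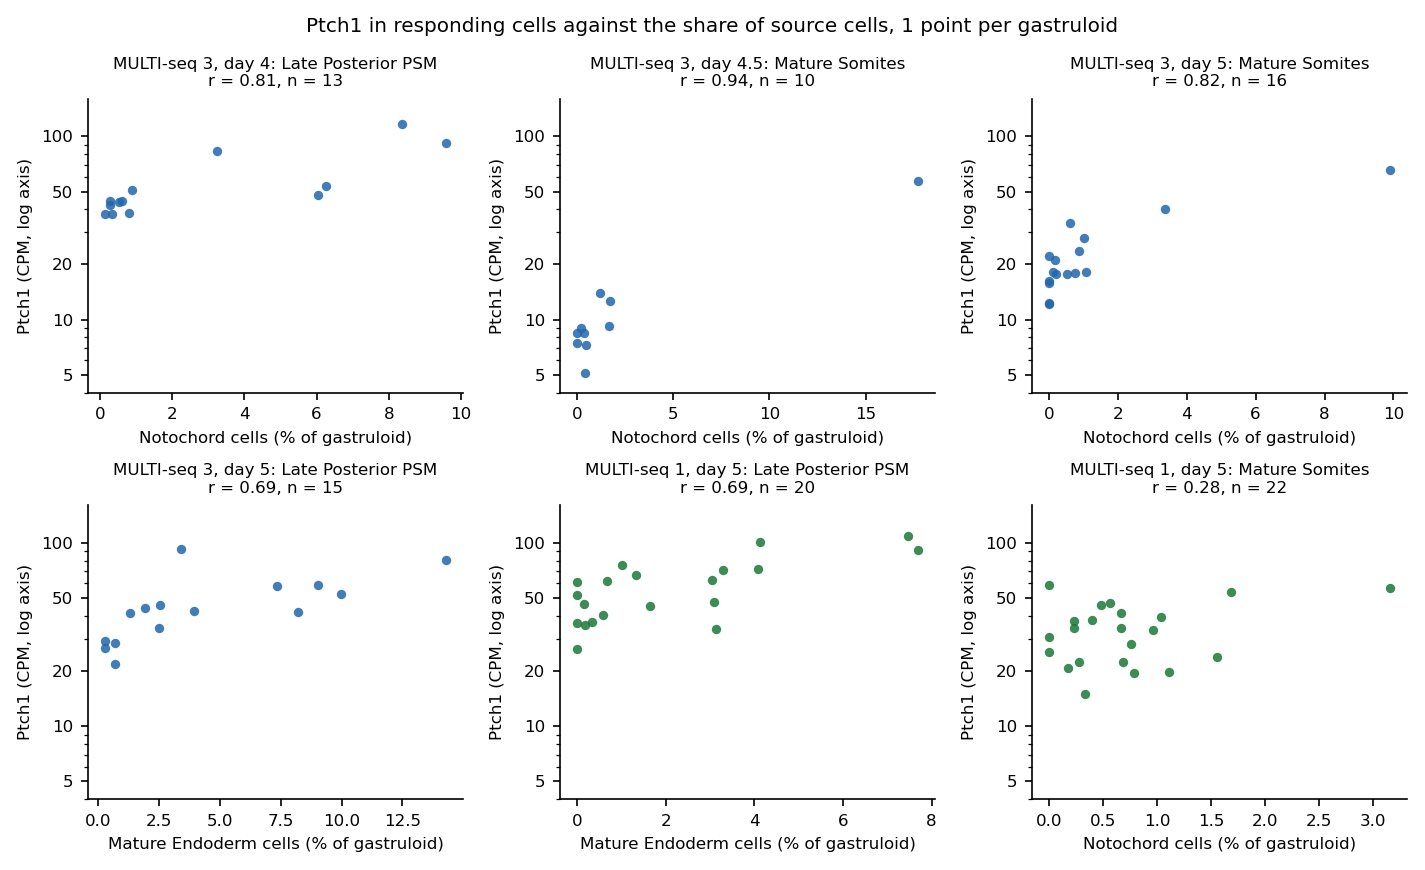
Ptch1 in a responding cell type (vertical axis, CPM, log scale) against the share of Notochord or Mature Endoderm cells in the gastruloid (horizontal axis, percent); a point is a gastruloid, and r is Pearson's with log2(CPM + 1). In the day 4.5 panel a single gastruloid lies at 17.7% and the others at 1.71% or below. The day 5 panels of Mature Endoderm spread over their range. The Notochord panel of MULTI-seq 1 has r = 0.28, which was not called.

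In spinal cord the called relations of Ptch1 were with Mature Endoderm. Ptch1 in Early Spinal Cord had r = 0.66 with its share at day 5 of MULTI-seq 1 (n = 20, adjusted permutation p = 0.0174; rho 0.72, adjusted permutation p = 0.00899; 0.51 without the 2 farthest, permutation p = 0.0303). In MULTI-seq 3 r was 0.64 (n = 15, adjusted permutation p = 0.0336; rho 0.63, adjusted permutation p = 0.0711) and 0.88 without the 2 farthest. Gli1 in the same cells had r = 0.70 (adjusted permutation p = 0.0174; rho 0.85, adjusted permutation p = 0.00870; 0.68 without the 2 farthest). With the Notochord share, Gli1 in Early Spinal Cord was called at day 4.5 of MULTI-seq 3 (r = 0.59, n = 14, adjusted permutation p = 0.0315; rho 0.57, adjusted permutation p = 0.110; 0.31 without the 2 farthest). Ptch1 in Early Spinal Cord at day 4.5 had r = 0.78 over 14 gastruloids (adjusted permutation p = 0.0736; rho 0.24, adjusted permutation p = 0.600), and r = -0.03 without the 2 farthest. Ccnd1, a cell cycle gene named as a target, had r = 0.76 with the Mature Endoderm share in Late Posterior PSM of MULTI-seq 1, with 2 of 11902 genes as high. Of 13 known targets, the 9 measured in Mature Somites at day 5 of MULTI-seq 3 all had a positive r with the Notochord share. Their median was 0.42 beside 0.02 over all genes, of which 53.5% had a positive r. Foxa2, among the 9, is also a marker of both sources. This combination was the fullest of 16 of source, type and day, all kept because Ptch1, Gli1 or Hhip was called there. With the Notochord share in Early Spinal Cord of day 4.5, 2 of 7 were positive (median -0.10 beside 0.03), and with Mature Endoderm in Early Spinal Cord of MULTI-seq 1, 3 of 6 (median 0.09 beside 0.00048). A median over such a list has no test here.

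Early Posterior PSM and Caudal Epiblast, added after the data were seen, gave 9 called relations of 22, all positive. By Spearman's rho 0 of the 22 were called, and 10 had an unadjusted permutation p under 0.05 by Pearson's r. Without the 2 farthest gastruloids 3 of the 9 had a permutation p under 0.05, and with at least 40 cells 1 of 6 relations was called. With the ligand's CPM in the whole gastruloid in place of the share, 10 of 22 were called by Pearson's r and 12 by Spearman's rho. All 10 had a permutation p under 0.05 without the 2 farthest. For the 58 relations above the counts called were 17 and 19, and 11 of the 17 kept such a p. That level was Shh for Notochord and Shh with Ihh for Mature Endoderm. Ihh had 458 UMIs against 6138 of Shh, so both sources had nearly the same measure. Each relation thus nearly repeats its counterpart with the other source, and these counts do not separate the sources. At day 4 Ptch1 in Early Posterior PSM had r = 0.78 with the Notochord share (n = 15, adjusted permutation p = 0.00755; rho 0.63, adjusted permutation p = 0.156; 0.58 without the 2 farthest, permutation p = 0.0370). Ptch1 in Caudal Epiblast had r = 0.78 with the share of Mature Endoderm (n = 13, adjusted permutation p = 0.0122; rho 0.60, adjusted permutation p = 0.169; 0.55 without the 2 farthest, permutation p = 0.0856).

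RNA or cells of the source could raise a gene in a responding type, so markers of the source were read in the same cells. The responding cells of the 28 called relations of both sets held at most 8 Shh UMIs in a group of gastruloids. For 16 combinations of source, cell type and day with a called relation, the source's markers were set beside Ptch1. In 12 of them no measured marker had an r as high as Ptch1. In the other 4 there was 1, which was Foxa2 in 3 and Trh in 1. The combinations were picked because a target was called there, while the markers were not so picked. That choice favours Ptch1, so this count cannot serve as a check on source RNA. Foxa2 stood at a median of 0.130 CPM in Mature Somites of day 5, where its r was 0.84 with the Notochord share. The summed marker level of Notochord in those cells ran from 9.17 to 99.3 CPM (r = 0.60 with the share), against 1597 CPM in Notochord cells. It was higher in other types, at 312 to 628 CPM in Caudal Epiblast of day 4 (r = 0.49) and 117 to 436 in Early Posterior PSM of day 3.5 (r = -0.64). T, on the Notochord list, was set down as a marker of streak cells too, so these sums cannot be read as source RNA alone. The summed markers of Mature Endoderm in Early Spinal Cord of MULTI-seq 1 had r = 0.64 with its share, close to the 0.66 of Ptch1. The part of stray source RNA or of misnamed cells in these relations was not tested.

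The gastruloids richest in Notochord carried high Ptch1 across many of their cell types. In MULTI-seq 3 at day 5 this gastruloid had 9.90% Notochord (the next had 3.37%) and 14.3% Mature Endoderm, the highest share of each. Its Ptch1 was the highest of all gastruloids in 7 of 9 types: 65.1 CPM in Mature Somites against 12.1 to 40.0 in the 15 others, 110 in NMPs against 6.88 to 49.4, 56.2 in Endothelium against 7.23 to 13.6 in 5 others, and 257 in Mature Endoderm against 81.4 to 147. Its 258 Mature Somites cells had 0 Shh UMIs. At day 4.5 a gastruloid had 17.7% Notochord (next 1.71%) and 14.0% Mature Endoderm, again the highest share of each. Its Ptch1 was the highest in 5 of 6 types, such as 56.7 CPM in Mature Somites against 5.00 to 28.4. The sources cannot be told apart in these gastruloids. Gli1 in the same gastruloids was highest in 5 of 9 types at day 5 and 5 of 6 at day 4.5. The pattern was not general. At day 4 of MULTI-seq 3, with 9.58% Notochord beside a next value of 8.38%, Ptch1 was highest in 0 of 8 types and Gli1 in 2. At day 5 of MULTI-seq 1, with 3.16%, Ptch1 was highest in 2 of 7 and Gli1 in 0. In MULTI-seq 2 each gene was highest in 0 of 1 type at day 4 and 1 of 4 at day 4.5. At days 3 and 3.5 of MULTI-seq 3 Ptch1 was highest in 3 of 3 and 3 of 6 types, and Gli1 in 0 and 1. Each is 1 gastruloid picked by its share of cells, so these values carry no test, and its types are not independent.

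**Figure D5:**
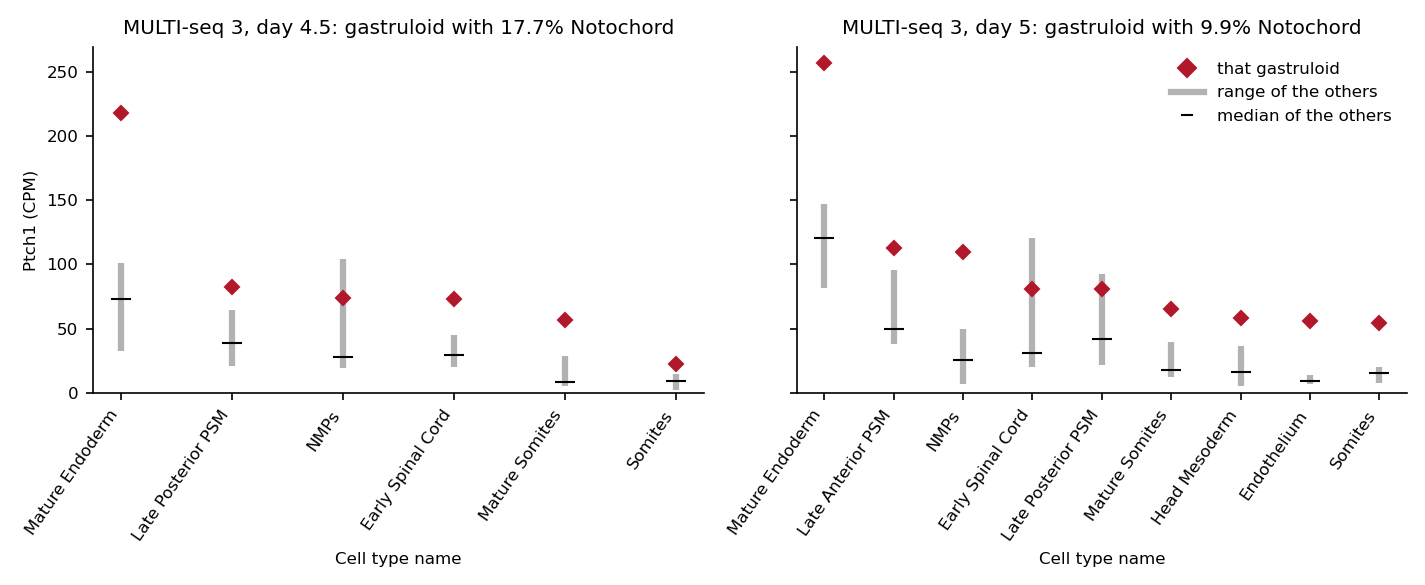
Ptch1 (vertical axis, CPM) by cell type (horizontal axis) in the gastruloid with the most Notochord cells (diamond) at day 4.5 and day 5 of MULTI-seq 3, beside the range (bar) and median (line) of the other gastruloids of that day. The diamond lies above the bar in 5 of 6 and in 7 of 9 types. At both days that gastruloid also has the highest share of Mature Endoderm.

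Other genes of the pathway were read from lists by role. From day 3.5 to day 4 in whole gastruloids, 4 of 6 genes of ligand release and other ligands were tested, 2 were higher and 1 lower. The higher ones were Disp1, which releases the lipid-bearing ligand (5.74 ± 1.79 to 9.16 ± 2.31 CPM, log2 0.63, adjusted p = 0.000377), and Scube1; the lower one was Scube3. Over all genes 31.1% were higher and 29.2% lower at this step, and the counts of these lists are to be read against that. Of 5 reception genes 3 were higher and 0 lower. Boc and Cdon, co-receptors that aid ligand binding, rose by log2 0.87 and 0.64, and Gas1, another co-receptor, by 0.89. Of 13 transduction and cilium genes 6 were higher (led by Prkacb and Arl13b) and 4 lower (Evc and Ift88 first). Of 13 known targets and patterning genes 7 were tested and 4 were higher: Foxc2 (log2 3.61), Foxf1 (2.75), Foxa2 (1.76) and Mycn (0.41). The median log2 difference was 0.64 for reception and 0.41 for targets, beside 0.01 over all genes. Foxa2 is also a marker of both source types.

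Within Early Posterior PSM from day 3.5 to day 4, Cdon rose by 0.54 on the log2 scale while Gas1 fell by 0.37. Of 5 known targets tested there 4 were higher, led by Foxc2 (log2 1.80) and Mycn (0.60). Among all 9605 genes tested in those cells, 1893 were called higher. Foxf1 rose there from 3.65 ± 5.51 to 15.8 ± 8.17 CPM (log2 1.49, SE 0.30). Its r with the Notochord share in those cells was 0.56 at day 3.5 and -0.33 at day 4. In Late Posterior PSM of day 4 it was -0.65. The direction of Gas1 thus depended on the cells read: in Caudal Epiblast it rose by 0.62. Of 10019 genes tested in Mature Somites from day 4.5 to day 5, 638 were higher and 760 lower. Among them were 5 known targets, of which 3 were higher and 1 lower. Mycn was the lower one (log2 -0.46, SE 0.12, adjusted p = 0.00499), below the day 4.5 median in 16 of 16 gastruloids, and Ccnd1 rose by 0.75. Pax1 and Pax9, the others called higher, mark the sclerotome, the part of the somite that forms cartilage. Pax1 in Mature Somites was 0.275 ± 0.786 CPM (n = 13) and 13.2 ± 12.1 (n = 16). Its mean at day 4.5 is below the level of 1 UMI at the median depth and it passed the filter through day 5, so no fold is given and its call is no support. Pax9 rose from 3.72 ± 3.29 to 8.61 ± 3.53 (log2 0.81, SE 0.24, adjusted p = 0.0197). Pax9 rose in Mature Endoderm as well, from 22.6 ± 6.36 CPM (n = 7) to 41.7 ± 6.21 (n = 9), with no overlap (log2 0.79, SE 0.14, adjusted p = 0.00368). In whole gastruloids only Boc was called among those lists at that step (log2 0.31, SE 0.11, adjusted p = 0.0473). Tested were 5 genes of ligand release, 5 of reception, 13 of transduction and cilium and 8 known targets. Over all 12298 genes 13.5% were called. In whole gastruloids of MULTI-seq 2, 1 of 3 ligand release genes tested (Scube3) and 1 of 4 reception genes (Boc) were higher at day 4.5. Of 13 transduction and cilium genes 2 were higher (Gpr161 and Spop) and 1 lower (Tulp3). Of 5 known targets tested 1 was lower (Foxa2). Over all 11064 genes 7.36% were called in either direction.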

How the data were processed

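The deposited files hold raw UMI counts per gene and cell, which the authors produced in Cell Ranger (version 6.0.0, per the file headers). The submitters' processing notes name mm10 and Seurat, and no source used here names the gene annotation. Cell type names and gastruloid calls were taken from the authors' deposited cell table, and doublets were treated as that table left them. Counts were summed per gastruloid (at least 30 cells) and per gastruloid and type (at least 10 cells, and 5 gastruloids a day). Days in one pool were compared with the edgeR 4.0.16 quasi-likelihood test in R 4.3.3, with TMM scaling, a filter on low counts and Benjamini-Hochberg adjustment over all genes, called at 0.05. DESeq2 1.42.0 was an alternative, and the script was tested on simulated data. Relations used 100000 permutations, two-sided. Gastruloids are separate aggregates of one line, so p-values measure the spread between aggregates. Lanes are technical splits of a pool. All 9 members are named, with the 2 smallest p in a direction per list and the 3 most alike genes per member. Members and lists were chosen with earlier results of these data known. The MULTI-seq 2 samples of days 3 and 3.5 were not analysed here. Some items of the lists are not reported here.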

Additional observations from a re-analysis of the deposited data

Results flagged for a closer look

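Of 43 groups of 4 to 10 gastruloids tested for a value far from the others, 8 had one, in each case the highest. The test's rate of about 1 in 20 by chance assumes normally distributed values, which CPM of rare genes need not be. In Mature Endoderm the highest gastruloid stood apart for Ptch1 in MULTI-seq 3 at day 4.5 (218 CPM, next 101) and at day 5 (257, next 147). Both are the gastruloids with the highest Notochord share of their day, and they also have the highest Mature Endoderm share. Gli1 at day 4.5 of MULTI-seq 3 reached 6.54 CPM (next 2.49), and Gli3 70.9 (next 46.8). In MULTI-seq 2 at day 4 Gli3 reached 42.1 CPM (next 19.6) in a gastruloid with 10 Mature Endoderm cells. Gli2 reached 2.35 CPM (others at 0) in a gastruloid with 18 such cells. Ihh at day 5 of MULTI-seq 1 reached 40.8 CPM in a gastruloid with 10 Mature Endoderm cells (next 4.17). In Notochord, Smo at day 4 of MULTI-seq 3 reached 97.7 CPM (next 73.8).

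Lanes with no gastruloid calls, which entered no comparison, also held Shh in cells named Notochord. Shh was 152 CPM in the 10X lane of day 3 (20 cells, exact Poisson 95% interval 109 to 206) and 55.7 in that of day 4 (57 cells, 39.4 to 76.4). In the remaining MULTI-seq 2 lanes it was 48.0 (73 cells, 36.7 to 61.6) and 77.4 (62 cells, 61.8 to 95.8). The intervals cover counting error only.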

How the results depend on the processing

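Of 130 alternative values of the members' fold changes, 123 kept their direction and side of the threshold, as did 42 of 53 for the relations. From day 3.5 to day 4, Ptch1, Smo, Gli1, Gli2 and Gli3 (5 members) stayed called whichever lane was left out, while Shh then did not pass the filter and has no value, and without the filter on low counts 9 of 34 tests within types were called in place of 5 of 15. From day 4.5 to day 5, leaving out a lane gave 0 to 1 called members: without lane C Gli3 was called (log2 -0.16, adjusted p = 0.0360) and Smo reversed, its log2 difference running from -0.050 to 0.023 over the lanes left out (adjusted p = 0.771 without lane C). DESeq2 called 3 tests within types there in place of 5, and without the filter Gli2 also lost its calls in Early and Late Spinal Cord (adjusted p = 0.0747 and 0.0980). In MULTI-seq 2 a minimum of 100 cells gave 2 called members in place of 0, with Gli2 at 0.90 (adjusted p = 0.0408). Of the relations, 11 of 46 were called with at least 40 cells in place of 19 of 58, 17 with ligand CPM as the source and 20 with a pseudocount of 10. That ligand CPM is of the whole gastruloid and nearly the same for both sources. Chosen after seeing the data, Early Posterior PSM and Caudal Epiblast gave 9 of 22 and Smo, Gli2 and Gli3 0 of 60, or 2 of 60 (both negative) with ligand CPM as the source. Shares of cells with a Shh UMI moved to 22.6% in Notochord and 10.5% in Mature Endoderm at 5000 UMIs. With at least 20 cells a type, Shh in Mature Endoderm at day 4.5 of MULTI-seq 3 was 63.2 CPM and Ptch1 160 over 2 gastruloids. In MULTI-seq 2 no type was left for that minimum in the tests within types. The cause of these moves was not tested. No paired analysis was possible because gastruloids carry no numbers shared between days, and lane numbers mark technical splits that each gastruloid spans.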
